A study of Rattus norvegicus with 12 samples.

Results

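The 10 genes named here as cardiac transcription factors were Gata4, Gata6, Nkx2-5, Tbx5, Tbx20, Mef2a, Mef2c, Mef2d, Hand1 and Hand2. They were chosen by name, and a gene was read from array probe sets whose platform annotation carried its symbol and no other. The rule found 8 of the 10, each with 1 probe set, among 14324 genes and 27342 probe sets. Mef2a and Mef2c had no such probe set and were not analysed here, so the MEF2 family was represented by Mef2d. The arrays measured RNA of heart muscle cell cultures prepared from Sprague-Dawley rat pups aged 2 days, plated on coverslips and grown for 3 days before treatment. Cultures then received vehicle (0.1% dimethyl sulphoxide, DMSO) or DEHP, the phthalate ester di(2-ethylhexyl) phthalate that softens polyvinyl chloride, at 1, 10 or 50 µg/ml in 0.1% DMSO for 3 days. Each of the 4 groups had 3 arrays, and the cells of all groups came from 1 litter. A p-value here therefore covers how cultures of that litter vary, not how litters do, and no batch or scan information was analysed, so handling and dose cannot be told apart. The question in the series title is dose dependence, and each dose was therefore compared with vehicle and with every lower dose.

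These factors switch on the gene programme of heart muscle. GATA4 and GATA6 are zinc finger proteins that bind GATA sequences, NKX2-5 is a homeodomain protein, TBX5 and TBX20 are T-box proteins, MEF2 proteins are MADS-box factors kept in check by class II histone deacetylases, and HAND1 and HAND2 are basic helix-loop-helix proteins best known for shaping the left and right ventricle of the mouse embryo. GATA4, NKX2-5 and TBX5 bind one another and act jointly on promoters of contractile and secreted heart proteins. Several of them are not confined to muscle cells: Gata6, Tbx20 and Hand2 are also known from endocardium, epicardium, smooth muscle or fibroblasts of the heart.

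The sequences below are the 250 bases before the RefSeq transcription start of the 4 genes that passed a test in any comparison and were in the promoter table, shown because these genes carry the calls reported below. They are given 5′ to 3′ on the gene's strand in build GRCr8: Gata6 at chr18:2460659-2460908 (plus strand), Nkx2-5 at chr10:16848350-16848599 (plus), Tbx5 at chr12:42395360-42395609 (minus) and Hand2 at chr16:37931489-37931738 (minus). Capitals mark matches, on either strand, to the binding motifs of the families themselves: GATAA for GATA proteins, TNAAGTG for NK2 proteins, GGTGTNA for T-box proteins, CATCTG for HAND proteins, the CArG box of SRF and the MEF2 site.
Gata6: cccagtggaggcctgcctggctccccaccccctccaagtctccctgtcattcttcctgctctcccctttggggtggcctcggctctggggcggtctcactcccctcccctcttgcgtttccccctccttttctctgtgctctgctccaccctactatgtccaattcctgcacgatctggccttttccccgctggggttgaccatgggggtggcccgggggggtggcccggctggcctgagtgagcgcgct
Nkx2-5: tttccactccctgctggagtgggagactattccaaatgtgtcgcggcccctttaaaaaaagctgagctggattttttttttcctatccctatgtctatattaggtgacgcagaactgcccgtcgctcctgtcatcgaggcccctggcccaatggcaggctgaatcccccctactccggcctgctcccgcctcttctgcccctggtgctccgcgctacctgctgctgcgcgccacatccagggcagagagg
Tbx5: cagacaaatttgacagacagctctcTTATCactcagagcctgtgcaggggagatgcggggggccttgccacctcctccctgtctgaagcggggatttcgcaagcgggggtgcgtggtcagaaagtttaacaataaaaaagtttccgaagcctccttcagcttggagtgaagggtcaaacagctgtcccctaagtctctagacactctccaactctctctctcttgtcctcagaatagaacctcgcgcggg
Hand2: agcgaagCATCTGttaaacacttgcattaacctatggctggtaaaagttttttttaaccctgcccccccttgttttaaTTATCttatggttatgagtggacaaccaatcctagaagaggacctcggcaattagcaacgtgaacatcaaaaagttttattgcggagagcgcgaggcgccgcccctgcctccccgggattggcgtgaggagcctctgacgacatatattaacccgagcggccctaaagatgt
The Tbx5 window held 1 GATA match, 225 bases before the start. The Hand2 window held 1 GATA match 172 bases and 1 CATCTG match 243 bases before the start. No match was found in the windows of Gata6 and Nkx2-5, nor in those of Tbx20, Mef2d and Hand1, which says only that these letters are not in these bases. Among 33469 promoters of equal length, 23.5% held a GATA match, 9.9% the NK2 motif, 9.1% the T-box motif, 14.0% the CATCTG motif, 1.5% a CArG box and 3.0% a MEF2 site. The Gata6 window was rich in G and C (66.0%, against a median of 51.2% over all promoters), whereas that of Hand2 stood at 48.0%.

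Values are log2 ratios: the deposited ratio of each array to the 12-array median of its probe set, on the log2 scale. A ratio above 1 was taken to mean more RNA on that array. This direction is assumed and not recorded. If it ran the other way, every log2 ratio and difference below would change sign, while the correlations would keep theirs. The ratios carry no level, so neither how abundant a factor was nor whether the muscle markers were present at all could be read, and genes cannot be ranked against one another by amount. A gene was called when its limma p, adjusted over all 14324 genes by the Benjamini-Hochberg method, was under 0.05. The number of arrays limits the precision, with a median residual SD of 0.08 per gene on the log2 scale. One array stood apart from its group before any comparison was made: the SD of log2 ratios over all genes was 0.177 on 10 µg/ml replicate 2, against 0.092 and 0.085 on the other 10 µg/ml arrays, and its correlation over genes was 0.33 with replicate 1 and -0.08 with replicate 3, against 0.19 between replicates 1 and 3. Differences of the factors that involve the 10 µg/ml group are therefore set beside their values without it where these change.

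At 50 µg/ml 2 of the 8 measured factors were called higher than vehicle. Gata6 rose by 0.28 ± 0.08 (SE, n = 3 arrays per group; limma adjusted p = 0.0297), a 1.21-fold difference, and Tbx5, whose loss causes the heart and limb malformations of Holt-Oram syndrome in humans, rose by 0.24 ± 0.07 (adjusted p = 0.0418), or 1.18-fold. None was called lower. Of all genes 17.6% were called in this comparison, 8.75% higher and 8.84% lower. Differences as large as that of Gata6 were found in 12.7% of genes. The median over the 8 factors was 0.14, beside 0.02 over all genes.

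Gata6 had log2 ratios of -0.03, 0.01 and -0.12 in the vehicle cultures, 0.09, -0.01 and 0.04 at 1 µg/ml, -0.15, -0.41 and -0.11 at 10 µg/ml, and 0.35, 0.12 and 0.21 at 50 µg/ml. All 3 arrays at 50 µg/ml lay above the 9 others, and all 3 at 10 µg/ml lay below 1 µg/ml. Its paralogue Gata4, which drives the early differentiation of heart muscle, had -0.01, -0.13 and -0.06 in vehicle, -0.16, 0.01 and -0.28 at 1 µg/ml, 0.11, 0.08 and -0.05 at 10 µg/ml, and 0.12, 0.10 and 0.22 at 50 µg/ml. The Gata4 arrays at 50 µg/ml lay above all vehicle arrays, but the difference of 0.21 ± 0.07 missed the threshold (limma adjusted p = 0.0632). It was called in 4 of 20 alternative settings, whose adjusted p ran from 0.0243 to 0.197. These 4 were array weights, the compared groups only, and leaving out 1 µg/ml replicate 2 or 1 µg/ml replicate 3, arrays of neither compared group.

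Nkx2-5, one of the earliest markers of the heart lineage, had 0.01, -0.09 and -0.05 in vehicle, -0.01, -0.18 and -0.07 at 1 µg/ml, 0.01, 0.36 and -0.10 at 10 µg/ml, and 0.19, 0.19 and 0.19 at 50 µg/ml. The highest of these 12 values was that of the array that stood apart, 10 µg/ml replicate 2. At 50 µg/ml the arrays were nearly equal and above all vehicle arrays, and the difference of 0.24 ± 0.09 was not called (limma adjusted p = 0.101). It was called without 10 µg/ml replicate 2, an array of neither compared group whose spread enters the shared error (adjusted p = 0.00662). It was also called with array weights (adjusted p = 0.0205) and with the compared groups only (0.00849), and in none of the other 20 alternative settings.

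Tbx5 had -0.05, -0.21 and -0.14 in vehicle, 0.13, 0.18 and -0.10 at 1 µg/ml, 0.05, -0.09 and -0.12 at 10 µg/ml, and 0.16, 0.06 and 0.11 at 50 µg/ml. All vehicle arrays were below 0 and all arrays at 50 µg/ml above it, the 1 µg/ml arrays overlapped both groups, and the 10 µg/ml arrays overlapped vehicle and lay below all arrays at 50 µg/ml. Tbx20, a T-box factor needed for growth of heart muscle and valves in the mouse embryo, had 0.06, -0.04 and 0.01 in vehicle, 0.06, 0.11 and -0.03 at 1 µg/ml, 0.07, -0.11 and 0.11 at 10 µg/ml, and -0.12, -0.10 and -0.01 at 50 µg/ml. Every dose overlapped vehicle for Tbx20, and at 50 µg/ml its difference of -0.09 (95% interval -0.22 to 0.05) was the one negative difference among the 8 factors.

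**Figure D1:**
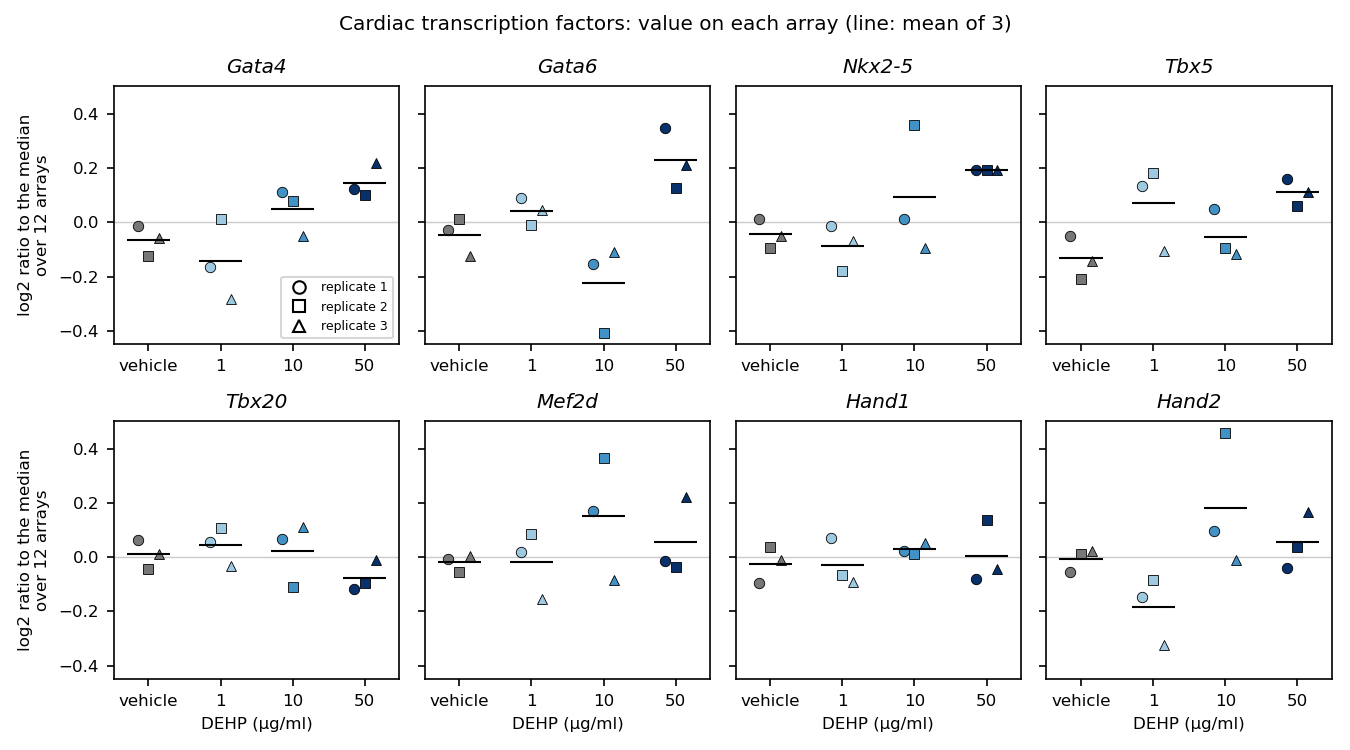
Log2 ratio to the median over 12 arrays (vertical axis) for the 8 measured factors, by DEHP dose in µg/ml (horizontal axis); each symbol is 1 array, shaped by replicate number, and each line the mean of 3. Gata6 was lowest at 10 µg/ml and highest at 50 µg/ml, and 10 µg/ml replicate 2 (square) gave the highest values of Nkx2-5, Mef2d and Hand2 and the lowest of Gata6.

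The remaining 3 factors overlapped vehicle at 50 µg/ml. Mef2d had 0.00, -0.05 and 0.01 in vehicle, 0.02, 0.08 and -0.15 at 1 µg/ml, 0.17, 0.37 and -0.09 at 10 µg/ml, and -0.01, -0.04 and 0.22 at 50 µg/ml. Hand1 lay between -0.10 and 0.14 on all 12 arrays, with group means of -0.02, -0.03, 0.03 and 0.00 from vehicle to 50 µg/ml. Hand2 had -0.06, 0.01 and 0.02 in vehicle, -0.15, -0.08 and -0.32 at 1 µg/ml, 0.10, 0.46 and -0.01 at 10 µg/ml, and -0.04, 0.04 and 0.17 at 50 µg/ml. For these factors the 50 µg/ml difference from vehicle was 0.07 for Mef2d (95% interval -0.15 to 0.30), 0.03 for Hand1 (-0.11 to 0.17) and 0.06 for Hand2 (-0.16 to 0.29). The intervals leave room for changes as large as those called for Gata6 and Tbx5 in Mef2d and Hand2, and for smaller ones in Hand1. Mef2d and Hand2 also varied most between arrays of a group, each with a residual SD of 0.149 that exceeded that of 93.2% of genes. Their SDs were largest at 10 µg/ml, the group of the array that stood apart: 0.227 for Mef2d and 0.246 for Hand2. They were 0.032 and 0.042 in vehicle, 0.123 and 0.124 at 1 µg/ml, and 0.144 and 0.104 at 50 µg/ml. The spread of all 4 groups enters the intervals above. In residual SD Tbx20 and Hand1 lay near the middle of all genes (46% and 48.8%).

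Counted without a test, 4 of the 8 factors (Gata4, Gata6, Nkx2-5 and Tbx5) had all 3 arrays at 50 µg/ml above all 3 vehicle arrays, and none had all below. Over all genes the groups did not overlap in 36% and lay apart upwards in 19.5%. The calls at 50 µg/ml were narrow. Of 20 alternative settings, Gata6 kept its call in 16 (adjusted p 0.00434 to 0.113) and Tbx5 in 12 (0.0147 to 0.153). Neither was called without 50 µg/ml replicate 1, without 50 µg/ml replicate 3 or without vehicle replicate 3. Without vehicle replicate 1 the call of Gata6 was lost, and without vehicle replicate 2, 1 µg/ml replicate 1 or 50 µg/ml replicate 2 that of Tbx5.

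Markers of other cells moved in the 50 µg/ml cultures, and in a mixed culture fewer cells of a type and less RNA per cell cannot be told apart. Of all genes 8.75% were called higher and 8.84% lower than vehicle at 50 µg/ml (median 0.02). Of 20 macrophage markers 19 were lower (median -1.10), with array medians of -1.02 to -0.95 at 50 µg/ml against 0.16 to 0.21 in vehicle. Of 12 endothelial markers 6 were higher and 1 lower (median 0.25), with array medians of 0.21 to 0.30 against -0.03 to 0.04 in vehicle. Of 10 epicardial markers 4 were higher and 0 lower (median 0.21), with array medians of 0.12 to 0.23 against -0.06 to -0.01 in vehicle. Of 15 muscle markers 9 were higher and 1 lower (median 0.23), with array medians of 0.04 to 0.12 against -0.22 to -0.01 in vehicle. Fibroblast (2 higher and 3 lower of 15) and smooth muscle markers (3 and 5 of 11) had medians of 0.01 and -0.08. Of 17 cell cycle genes 15 were lower (median -0.39), and of 18 immediate early genes 16 were higher (median 0.47). The part of these shifts in the values of the factors was not tested.

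Between 50 and 10 µg/ml, 1 of the 8 factors was called. Gata6 rose by 0.45 ± 0.08 (limma adjusted p = 0.0019), 1.37-fold, and the 3 arrays of each dose lay apart. Of all genes 14.6% were called in this comparison (7.75% higher), 3.95% had a difference as large, and 15.4% lay apart upwards. This was the one call among the factors that stood under every alternative (20 of 20, adjusted p 0.000334 to 0.0222), with a value of 0.36 without 10 µg/ml replicate 2. Without that array Nkx2-5 was called as well. Tbx5 was also higher on every array at 50 µg/ml than on any at 10 µg/ml, with a difference of 0.16 ± 0.07 that was not called (adjusted p = 0.184). Mef2d and Hand2, at -0.09 and -0.13, and Gata4 and Nkx2-5, each at 0.10, were not called.

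Between 50 and 1 µg/ml the factors called were Gata4 and Nkx2-5. Gata4 rose by 0.29 ± 0.07 (limma adjusted p = 0.0117), 1.22-fold, and Nkx2-5 by 0.28 ± 0.09 (adjusted p = 0.0424), 1.21-fold. Of all genes 24.9% were called here (11.5% higher). The groups lay apart upwards for Gata4, Gata6, Nkx2-5 and Hand2, 4 of 8, which over all genes was the case in 21.4%. Gata6 stood at 0.19 ± 0.08 (adjusted p = 0.105) and Hand2 at 0.24 ± 0.10 (adjusted p = 0.114), and both were called without 10 µg/ml replicate 2. The call of Gata4 stood in 19 of 20 alternatives and was lost, at 0.22 and an adjusted p of 0.0504, without 1 µg/ml replicate 3. That of Nkx2-5 stood in 8 of 20 and was lost when any 1 array of vehicle, 1 µg/ml or 50 µg/ml was left out.

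Between 10 and 1 µg/ml the paralogues Gata6 and Gata4 had differences of opposite sign. Gata6 fell by 0.26 ± 0.08 (limma adjusted p = 0.0434) while Gata4 stood at 0.19 ± 0.07 (adjusted p = 0.0972), not called, and Hand2 rose by 0.37 ± 0.10 (adjusted p = 0.0354). Of all genes 14% were called (4.77% higher and 9.2% lower). Both calls were lost without 10 µg/ml replicate 2, where Gata6 stood at -0.17 (adjusted p = 0.152) and Hand2 at 0.23 (adjusted p = 0.101). Both were also lost without vehicle replicate 2, 1 µg/ml replicate 1 or 1 µg/ml replicate 3. That of Gata6 alone was lost without vehicle replicate 1, vehicle replicate 3, 1 µg/ml replicate 2, 10 µg/ml replicate 1 or 50 µg/ml replicate 3, while without 10 µg/ml replicate 3 Gata4, Nkx2-5 and Mef2d were called besides them. Calls between 10 and 1 µg/ml thus changed with the array left out.

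**Figure D2:**
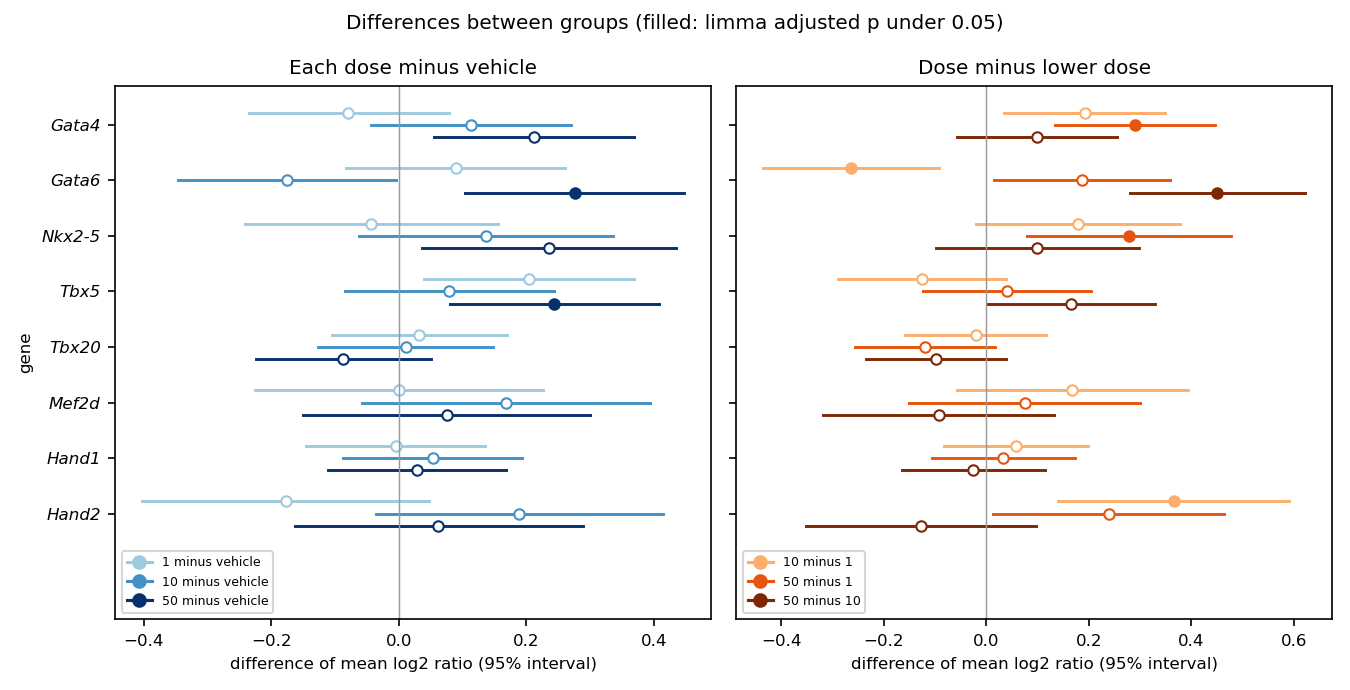
Difference of mean log2 ratio (horizontal axis, with 95% interval from the limma fit) for the 8 factors, each dose minus vehicle on the left and each dose minus a lower dose on the right; filled points passed the adjusted p of 0.05. Gata6 at 50 minus 10 µg/ml is the largest difference, at 0.45.

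Against vehicle the lower doses gave no call among the 8 factors by limma. At 10 µg/ml 0 genes of 14324 were called (0%), with 899 (6.28%) at an unadjusted p under 0.05, among them Gata6 at -0.18 ± 0.08 (unadjusted p = 0.0451), which without 10 µg/ml replicate 2 stood at -0.08. No factor had its 10 µg/ml arrays apart from vehicle, whereas 11.2% of all genes did. The difference was positive for the other 7 factors and reached 0.19 ± 0.10 for Hand2, 0.17 ± 0.10 for Mef2d and 0.14 ± 0.09 for Nkx2-5. Without 10 µg/ml replicate 2 it was 0.05 for Hand2, 0.06 for Mef2d and 0.003 for Nkx2-5. At 1 µg/ml 4.24% of genes were called. Tbx5 was the one factor with an unadjusted p under 0.05 there (0.20 ± 0.07, unadjusted p = 0.0187, adjusted p = 0.15), as were 20.2% of genes, and with array weights it was called (adjusted p = 0.0498). Hand2 lay below vehicle on all 3 arrays (-0.18 ± 0.10, adjusted p = 0.377), as 14.1% of genes did. At 1 µg/ml 4 of 12 endothelial markers (median -0.24), 3 of 20 macrophage markers (median -0.23) and 3 of 15 fibroblast markers (median -0.07) were lower, 1 of 15 muscle markers was higher (median 0.05), and 10 of 18 immediate early genes were higher (median 0.33). Whether these bear on the factors was not tested.

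The 8 factors did not move as 1 block. Over the 12 arrays, which share the dose groups, Pearson's r between pairs of factors ran from -0.74 to 0.85, and 7 of 28 pairs exceeded 0.5, as a description without a test. The closest pair was Mef2d and Hand2 (r = 0.85, and 0.69 over the 11 arrays without 10 µg/ml replicate 2). Gata4 went with Hand2 (0.67, and 0.82 without that array), Mef2d (0.64, and 0.73) and Nkx2-5 (0.63, and 0.67). Within dose groups r of Gata4 was 0.56 with Hand2, 0.76 with Mef2d, 0.10 with Nkx2-5 and 0.81 with Tbx5. That of Gata6 with Tbx5 was 0.15 within groups. The values of Gata6 turned on 10 µg/ml replicate 2. Over all 12 arrays its r was 0.54 with Tbx5, -0.01 with Nkx2-5, 0.12 with Gata4, -0.20 with Tbx20 and -0.51 with Hand2. Over the 11 others it was 0.54 with Tbx5, 0.71 with Nkx2-5, 0.33 with Gata4, -0.71 with Tbx20 and -0.02 with Hand2. Within dose groups, with all 12 arrays, it was -0.63 with Nkx2-5, -0.3 with Gata4, 0.42 with Tbx20 and -0.76 with Hand2. Nkx2-5 and Tbx20 ran opposite to each other with and without 10 µg/ml replicate 2 (-0.74 and -0.67).

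For each factor called in some comparison, the genes whose log2 ratios over the 12 arrays were most like it were sought among all other measured genes. Gata6 was nearest to the zinc transporter Slc39a10 (r = 0.964), the pantetheinase Vnn1 (0.958) and the inhibitory G protein subunit Gnai1 (0.957). Without 10 µg/ml replicate 2 these were 0.965, 0.944 and 0.949. Nkx2-5 was nearest to the kinase Pak4 (0.970), the sphingomyelinase Smpd2 (0.960) and the small MAF protein Maff (0.946). Hand2 was nearest to Rnf44 (0.970), Tlcd3b (0.961) and Arrdc1 (0.955). Without 10 µg/ml replicate 2, r fell to 0.952, 0.945 and 0.912 for the genes nearest to Nkx2-5. For those nearest to Hand2 it fell to 0.929, 0.927 and 0.909. Gata4 was nearest to the ribosomal protein gene Rpl38 (0.943), Prag1 (0.941) and the kinase Rps6ka2 (0.936), and Tbx5 to the chromatin remodelling ATPase Smarca2 (0.898), Cxxc5 (0.877) and Ube2j2 (0.877). Each is the top of 14324 genes by choice and is given as a description of likeness, without a test.

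Partners of the factors were read from a list of 42 cofactors and other cardiac regulators, of which 33 were measured. At 50 µg/ml 9 were higher and 0 lower than vehicle (median 0.08, beside 0.02 over all genes), and 17.6% of all genes were called. Hopx, a homeodomain protein without DNA binding that acts downstream of NKX2-5 in the mouse heart, rose by 0.86 ± 0.07 (limma adjusted p = 2.57e-06), with means of -0.05 ± 0.03 in vehicle, 0.02 ± 0.14 at 1 µg/ml, -0.06 ± 0.09 at 10 µg/ml and 0.81 ± 0.04 at 50 µg/ml (SD, n = 3). Tbx3, a T-box repressor of the working muscle programme in the conduction system, rose by 0.42 ± 0.06, the coactivator Cited2 by 0.41 ± 0.08 and Srf, a MADS-box partner of GATA4 and NKX2-5 that is also on the immediate early list, by 0.34 ± 0.05. For Hopx, Tbx3 and Srf the shift was confined to 50 µg/ml among the 3 doses tested against vehicle, with values of 0.07, -0.09 and -0.03 at 1 µg/ml that were not called, and of -0.005, -0.10 and -0.04 at the next dose. The GATA cofactor Zfpm2 (FOG2) was among the 9, at 0.24 ± 0.07. The count was 11 higher and 2 lower without 10 µg/ml replicate 2, and 6 higher without vehicle replicate 1 or without vehicle replicate 3. Calls among all genes at 50 µg/ml changed as well, from 2520 with all arrays to between 1731 and 3153 with 1 array left out.

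At 1 µg/ml 2 of the 33 partners were higher than vehicle: Cited2 by 0.32 ± 0.08 (limma adjusted p = 0.0377) and the homeodomain protein Meis2 by 0.22 ± 0.05 (adjusted p = 0.0399), where 4.24% of all genes were called. Both were also higher at 50 µg/ml, in a comparison that shares the vehicle arrays. Cited2 had means of -0.21 ± 0.08 in vehicle, 0.11 ± 0.14 at 1 µg/ml, -0.09 ± 0.10 at 10 µg/ml and 0.20 ± 0.07 at 50 µg/ml. Without any 1 vehicle array the count of 2 went to 0, as it did without 1 µg/ml replicate 1 or without 1 µg/ml replicate 2. It went to 1 without 1 µg/ml replicate 3, 10 µg/ml replicate 1, 50 µg/ml replicate 1 or 50 µg/ml replicate 3, and was 3 higher and 1 lower without 10 µg/ml replicate 2. Over all genes the number called at 1 µg/ml, 608 with all arrays, was 176 to 1282 with 1 array left out. At 10 µg/ml none of the 33 was called, and neither was any of the 14324 genes.

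Genes known as targets of the factors, mostly contractile, coupling and secreted proteins, were read from a list of 41, of which 36 were measured. At 50 µg/ml 16 were higher, 2 lower and 18 not called (median 0.14, beside 0.02 over all genes). Of all genes 17.6% were called, 8.75% higher and 8.84% lower. The list shares 12 genes with the muscle markers, and among the 24 others 9 were higher and 1 lower (median 0.11). The largest rises were those of the atrial light chain Myl7 (1.46 ± 0.10), Hopx, the alpha myosin heavy chain Myh6 (0.63 ± 0.08) and the muscle creatine kinase Ckm (0.63 ± 0.11). Myl7 had means of -0.22 ± 0.16 in vehicle, -0.16 ± 0.16 at 1 µg/ml, 0.19 ± 0.17 at 10 µg/ml and 1.23 ± 0.08 at 50 µg/ml. Falls were called for 2, Gja5, encoding a connexin of atrial and conduction cells, and Nppa, encoding atrial natriuretic peptide, both of which TBX5 and NKX2-5 activate in the mouse heart. Gja5 fell by 0.40 ± 0.09 (limma adjusted p = 0.00578) at 50 µg/ml, with means of -0.09 ± 0.09 in vehicle, 0.24 ± 0.10 at 1 µg/ml, 0.02 ± 0.04 at 10 µg/ml and -0.49 ± 0.19 at 50 µg/ml. Nppa fell by 0.17 ± 0.05 (adjusted p = 0.0239). The call of Gja5 stood with any 1 array left out. That of Nppa was lost without vehicle replicate 1 (adjusted p = 0.113), vehicle replicate 3 (0.0502), 50 µg/ml replicate 1 (0.0793) or 50 µg/ml replicate 2 (0.054). The number of targets called higher was 8 without vehicle replicate 3. Among all genes the number called at 50 µg/ml, 2520 with all arrays, was 1731 to 3153 with 1 array left out.

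At the lower doses few targets were called. At 1 µg/ml the Z-disc gene Xirp2, a MEF2 target in the mouse, rose by 0.49 ± 0.11 (limma adjusted p = 0.0289) and the M-band gene Myom1 by 0.28 ± 0.07 (adjusted p = 0.0478), 2 of 36 beside 4.24% of all genes. Xirp2 had means of -0.28 ± 0.20 in vehicle, 0.21 ± 0.12 at 1 µg/ml, 0.18 ± 0.15 at 10 µg/ml and -0.26 ± 0.16 at 50 µg/ml, while the means of Mef2d were -0.02 ± 0.03, -0.02 ± 0.12, 0.15 ± 0.23 and 0.06 ± 0.14. The Xirp2 difference at 10 µg/ml, 0.46 ± 0.11, was not called (adjusted p = 0.424), and Mef2d was not called against vehicle at any dose. Mef2a and Mef2c were not measured, so neither could be set beside Xirp2. The count of 2 went to 0 without vehicle replicate 2, vehicle replicate 3 or any 1 of the 1 µg/ml arrays, to 1 without 10 µg/ml replicate 1 or 50 µg/ml replicate 1, and to 3 without 10 µg/ml replicate 2 or 50 µg/ml replicate 2. Over all genes the number called at 1 µg/ml, 608 with all arrays, was 176 to 1282 with 1 array left out. At 10 µg/ml none of the 36 was called, and neither was any of the 14324 genes. The median of the 36 targets was 0.11 there, beside -0.006 over all genes, and 0.14 at 50 µg/ml.

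**Figure D3:**
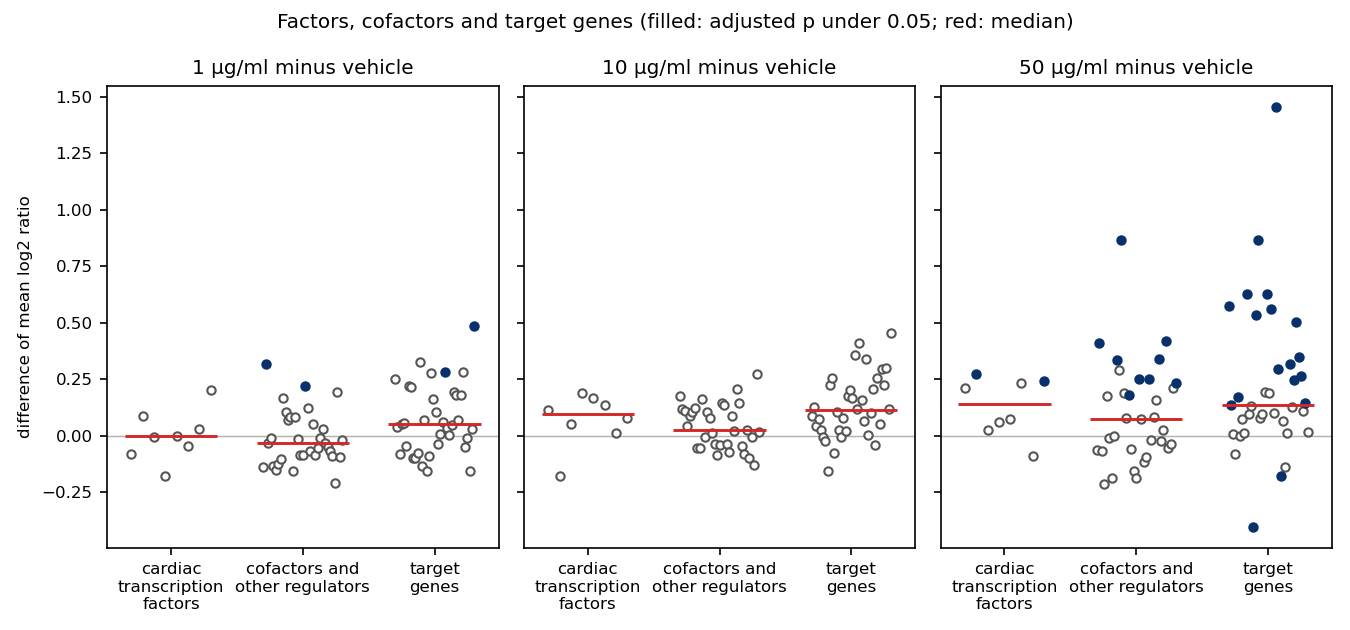
Difference of mean log2 ratio from vehicle (vertical axis) at 1, 10 and 50 µg/ml for the 8 factors, 33 cofactors and other regulators and 36 target genes; each point is 1 gene, filled where the adjusted p was under 0.05, and red lines are medians. At 50 µg/ml 2 factors, 9 regulators and 18 targets were filled, and the differences of the factors stayed below 0.3.

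**Figure D4:**
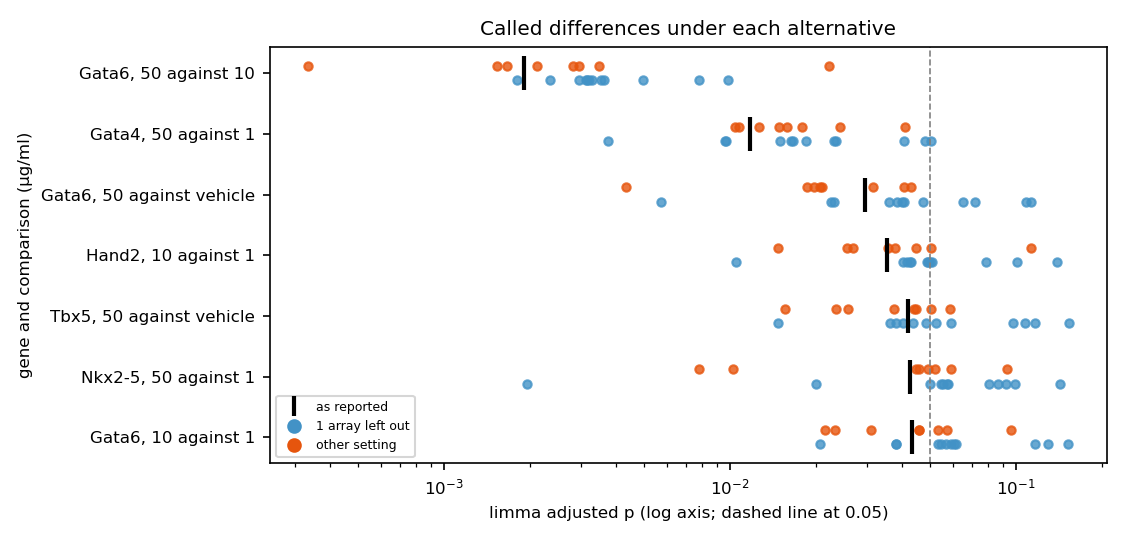
Limma adjusted p (log axis) of the 7 called differences of the factors, as reported (black bar), with 1 array left out (blue) and under the other settings (orange); the dashed line is 0.05. All points of Gata6 at 50 against 10 µg/ml lie left of the line, and each other row crosses it.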

How the data were processed

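RNA of 12 cultures was measured on Affymetrix arrays, 1 per sample, from 5 µg of total RNA. RMA was used, per the submitters' processing notes (version not given in the sources). What the authors deposited is a linear ratio per probe set and array, relative to that probe set's 12-array median; each log2 median was 0 (tolerance 1e-06). The ratios were converted to log2 and probe sets of a gene averaged. Of 27342 probe sets 15097 had 1 gene symbol in the platform annotation, 323 several and 11922 none, and the GRCr8 gene table changed 0 symbols. Group means were fitted with limma 3.58.1 (R 4.3.3) over all 12 arrays with 8 residual degrees of freedom and empirical Bayes moderation, two-sided. The fit was tested on simulated data. An exact permutation of 3 arrays against 3 cannot go below p = 0.1.

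The members and lists were chosen with earlier results of these data known. Named were all factors, the 4 largest rises and falls of the 2 lists per dose among genes called against vehicle, and the 3 most alike genes of each called factor. Zfpm2 was picked after its values were seen. Alternatives were a repeated quantile normalization, median centring, a robust prior, array weights, compared groups only, a replicate block, untransformed ratios, probe sets in place of genes and leaving out each array. No dim-probe filter could be applied, because the ratios keep no level. Promoters are from RefSeq: 7 of the 8 genes matched.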

Additional observations from a re-analysis of the deposited data

How the results depend on the processing

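Of 7 called differences of the factors, 1 (Gata6, 50 against 10 µg/ml) was called under all 20 alternatives. The number of factors called at 50 µg/ml against vehicle, 2 as reported, was 1 after median centring, 1 with probe sets in place of genes, 4 with array weights and 4 with the compared groups only, and 0 to 3 with 1 array left out. For 50 against 1 µg/ml, 2 as reported, it was 1 after a repeated quantile normalization, 1 with the replicate block and 1 with probe sets, and 0 to 4 with 1 array left out. For 10 against 1 µg/ml, 2 as reported, it was 0 with the compared groups only, 1 with untransformed values and 0 with probe sets, and 0 to 5 with 1 array left out. For 50 against 10 µg/ml it was 1 to 2 and for both lower doses against vehicle 0 to 0 with 1 array left out, and 1 at 1 µg/ml with array weights. The calls over all genes also changed between settings, as given below. The cause of these changes was not tested.

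Over all genes, the count at 10 µg/ml against vehicle, 0 as reported, was 15 after repeating the quantile normalization, 90 with weighted arrays and 0 to 1 with 1 array left out. At 1 µg/ml, 608 as reported, it was 1139 after repeating the quantile normalization, 1772 with weighted arrays, 1661 with the compared groups only and 176 to 1282 with 1 array left out. At 50 µg/ml 1731 to 3153 remained with 1 array left out (2520 as reported). For 50 against 10 µg/ml it was 3457 with array weights, 1312 with the compared groups only and 1534 to 2531 with 1 array left out (2091). For 50 against 1 µg/ml it was 2321 after a repeated quantile normalization and 2432 to 4370 with 1 array left out (3562), and for 10 against 1 µg/ml 3155 with array weights, 697 with the compared groups only and 820 to 2694 with 1 array left out (2001).

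Differences near 0 that were never called changed sign. With 1 array left out, Hand1 ran from -0.038 to 0.072 and Mef2d from -0.007 to 0.123 at 50 µg/ml, and Tbx20 from -0.033 to 0.077 at 10 µg/ml. At 1 µg/ml Hand1 ran from -0.055 to 0.026, Mef2d from -0.05 to 0.069, Nkx2-5 from -0.08 to 0.003 and Tbx20 from -0.001 to 0.071, and Hand1 was 0.02 after a repeated quantile normalization and 0.003 with array weights. Deviations of samples with equal replicate numbers correlated at -0.233 to 0.431, over 0.1 in 6 of 18 pairs. Pairs with unequal numbers reached 0.494, so these correlations do not settle whether the numbers pair the samples. With the replicate block Nkx2-5 at 50 against 1 µg/ml had a limma adjusted p of 0.0519. No background, scan or slide information was analysed here.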
